A study of Homo sapiens with 6 samples.

Results

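The members described here are 7 genes, grouped as plasminogen activators, their receptor and serpins. The grouping does not make each serpin a part of plasminogen activation. The members are the activators PLAT and PLAU, the urokinase receptor PLAUR, and the serpins SERPINE2, SERPINB1, SERPINB2 and SERPINB5. Each was read through all probe sets that the platform annotation assigns to it and to no other gene. This gave 14 probe sets of the 54675 on the array, for 6 of the 7 genes, out of 19775 genes with a probe set of their own. SERPINB2 is not analysed here. The cells were Capan-1, an established line from a human pancreatic carcinoma, so each result is about a single line. The 3 control arrays carried RNA of cells transfected with a siRNA named allStar in the labels, and the 3 siGNE arrays carried RNA of cells transfected with siRNA against GNE, the enzyme that starts sialic acid synthesis. All cells were transfected 2 times with 48 h between, and the last transfection came 72 h before harvest. The titles number the arrays 1 to 3 in each group, and a control and a siGNE array that share a number form a pair. Separate cultures are not named in the labels, so the spread between arrays may be technical. In these bulk samples, less RNA per cell and fewer cells making the RNA cannot be told apart.

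Plasminogen is the circulating precursor of plasmin, a serine protease that dissolves fibrin, degrades matrix proteins and activates other proteases and growth factors at the cell surface. It is cleaved to plasmin by tissue plasminogen activator (tPA, gene PLAT) or by urokinase (uPA, gene PLAU), and urokinase is held at the membrane by its receptor uPAR (gene PLAUR). Serpins are inhibitors that most often trap a serine protease by offering it a bait loop. In pancreatic ductal carcinoma, both activators and the receptor are known from invasive tumour cells.

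The genes were chosen with the siGNE against control differences of these arrays in view. Those differences are therefore given as a description, without a p-value. Values are log2 expression as normalized by the authors, in which 1 unit is a 2-fold difference and values near the array median, 2.96 to 3.02, are close to background. Of the 14 probe sets, 12 had a mean over all arrays above 4, the limit used for testing. Of the other 2, the SERPINE2 probe set 227487_s_at read 2.20 to 2.26 and the SERPINB5 probe set 1555551_at read 2.68 to 2.79, so both are at background and say nothing of a difference. The siRNA target itself was lower in each pair. GNE read 11.15 ± 0.30 in control and 9.27 ± 0.78 in siGNE arrays (SD, n = 3), a log2 difference of -1.88 (limma adjusted p 0.131, and 0.0348 with the pair as a block), with -2.73, -1.61 and -1.29 in pairs 1, 2 and 3. With both arrays of number 1, 2 or 3 left out, the limma adjusted p with the block was 0.0665, 0.127 and 0.144. An exact permutation test over the arrays, two-sided, cannot go below p = 0.1 in this design, and that was its value. The 8 ductal epithelial markers, keratins and EPCAM among them, had means of 10.64 to 15.34, and 0 of the 10 endothelial, leukocyte and acinar markers with a probe set was above 4. Of the 6 fibroblast markers, 1 was above 4, the collagen gene COL1A1, and the group means of the other 5, its partner chain COL1A2 among them, were 2.44 to 3.06. COL1A1 rose from 8.03 to 8.74 with the pair as a block (limma adjusted p 0.0441, and 0.512 without the block), and it was the one marker of the 5 cell type lists that passed. Its part in the member differences was not tested.

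The promoters of 4 members are shown, and those of PLAT and SERPINB2 are not. AP-1 and Sp1 sites are textbook elements in promoters of plasminogen activation genes, but not each of these 4 need be such a gene. Each promoter shown is the 250 bases before a transcription start in RefSeq, build GRCh38.p14, read in the direction of the gene. Capitals mark the AP-1 motif TGANTCA and the GC box GGGCGG on either strand.
PLAUR chr19:43670170-43670419, minus strand: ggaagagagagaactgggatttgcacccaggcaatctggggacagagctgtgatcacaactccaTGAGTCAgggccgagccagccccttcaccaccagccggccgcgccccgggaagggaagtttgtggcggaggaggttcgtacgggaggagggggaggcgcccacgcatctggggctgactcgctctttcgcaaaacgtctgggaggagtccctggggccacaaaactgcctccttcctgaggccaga
SERPINB5 chr18:63476708-63476957, plus strand: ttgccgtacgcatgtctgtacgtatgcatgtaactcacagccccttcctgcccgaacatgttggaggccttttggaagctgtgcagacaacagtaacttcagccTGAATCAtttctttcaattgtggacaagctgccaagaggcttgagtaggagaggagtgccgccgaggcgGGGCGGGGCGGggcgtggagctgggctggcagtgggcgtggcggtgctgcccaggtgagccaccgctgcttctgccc
SERPINB1 chr6:2841864-2842113, minus strand: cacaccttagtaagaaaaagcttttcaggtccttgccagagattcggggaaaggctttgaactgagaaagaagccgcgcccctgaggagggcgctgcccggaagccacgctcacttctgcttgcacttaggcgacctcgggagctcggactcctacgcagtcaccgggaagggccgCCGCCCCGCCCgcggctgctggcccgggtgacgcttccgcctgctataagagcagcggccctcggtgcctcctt
PLAU chr10:73910882-73911131, plus strand: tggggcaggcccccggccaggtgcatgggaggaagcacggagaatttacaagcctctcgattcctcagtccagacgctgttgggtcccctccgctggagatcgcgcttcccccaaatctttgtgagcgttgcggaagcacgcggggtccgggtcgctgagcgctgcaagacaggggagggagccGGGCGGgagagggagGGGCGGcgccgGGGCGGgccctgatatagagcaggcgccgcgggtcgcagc

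The AP-1 motif, searched with any base in the middle, stood as TGAGTCA in the PLAUR window, beginning 186 bases before the start. In the SERPINB5 window it stood as TGAATCA, beginning 146 bases before the start. Of all 35116 promoter windows of this length, 6.57% held a match to this loose pattern. GC boxes stood in the SERPINB5, SERPINB1 and PLAU windows and not in that of PLAUR. The windows of SERPINB1 and PLAU had no AP-1 match. A GC box was present in 42.6% of all windows. Matches to the antioxidant response element TGACNNNGC (10.9% of all windows) and to the CHOP and ATF4 composite TGATGNAA (3.14%) were also looked for, and the 4 windows shown hold neither. A second PLAU start and both SERPINE2 starts in the table are not shown. Among those, the antioxidant response element matched 168 bases before the other PLAU start, and 171 and 94 bases before a SERPINE2 start. Both SERPINE2 windows had GC boxes, the other PLAU window had none, and the AP-1 motif was in none of those windows. These are letter matches only.

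PLAT, the activator best known from fibrin clots, was lower in siGNE cells by more than any other member. Its probe set 201860_s_at read 10.66, 11.07 and 10.64 on control arrays 1, 2 and 3, and 8.86, 9.48 and 8.79 on siGNE arrays 1, 2 and 3. All siGNE values lay below all control values, and array 2 was the highest in both groups. The log2 difference was -1.75 (SE 0.23, and 0.10 with the pair as a block), which leaves 29.8% of the control signal. The 3 pairs read -1.80, -1.59 and -1.85. The GNE difference was largest in pair 1 and the PLAT difference in pair 3, though the PLAT pairs lay close together. Whether the PLAT difference is connected with the degree of silencing was not tested. PLAT has 1 probe set, and no second one can be set beside it.

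PLAU, whose product is the receptor-bound activator, showed no common direction. Probe set 205479_s_at read 12.64, 11.76 and 12.08 in control and 12.34, 12.07 and 12.32 in siGNE arrays. The groups overlapped, and the control arrays spread over 0.89 while the siGNE arrays spread over 0.27. The pairs differed by -0.30, 0.31 and 0.24, with a mean of 0.08 (SE 0.24). Without control array 2 the mean was -0.12, so the sign of the mean rests on that array. Probe set 211668_s_at read 11.76, 11.01 and 11.99 in control and 11.56, 10.79 and 12.25 in siGNE arrays. Array 2 was lowest and array 3 highest in both groups, and the pairs differed by -0.20, -0.21 and 0.26, with a mean of -0.05. In pair 2 the 2 probe sets of PLAU had opposite signs.

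PLAUR, the membrane anchor of urokinase, was highest on siGNE array 1 and showed no common direction over the pairs. Probe set 210845_s_at read 9.91, 9.64 and 9.36 in control and 10.65, 9.69 and 9.32 in siGNE arrays. Probe set 211924_s_at read 9.87, 9.62 and 9.34 in control and 10.78, 9.31 and 9.49 in siGNE arrays. Probe set 214866_at read 8.20, 7.69 and 7.24 in control and 8.57, 7.80 and 7.08 in siGNE arrays. On each of the 3 probe sets siGNE array 1 was the highest of the 6 arrays, and control array 1 was the highest control. Pair 1 differed by 0.73, 0.91 and 0.37 on these probe sets, pair 2 by 0.04, -0.31 and 0.11, and pair 3 by -0.04, 0.15 and -0.15. The mean difference of 210845_s_at was 0.24 (SE 0.36). Without siGNE array 1 it was -0.14, and without both arrays of number 1 it was -0.00048. Pair 1 was also the pair in which GNE was lowest relative to its control, at 15.0% against 32.8% and 40.9%. Whether the PLAUR signal is connected with the degree of silencing was not tested.

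SERPINE2, also called protease nexin-1, is a secreted relative of the main plasminogen activator inhibitor that blocks thrombin, urokinase and tPA. Its probe set 212190_at was nearly the same on the control arrays, at 11.14, 11.09 and 11.09, a spread of 0.06. Of all tested probe sets, the control spread of SERPINE2 ranked at percentile 3.25, against 85.3 and 88.2 for the 2 probe sets of PLAU and 64.4 to 87.7 for those of PLAUR. The siGNE arrays read 10.44, 10.79 and 11.12. Arrays 1 and 2 lay below every control, while array 3 lay among the controls. The pairs differed by -0.70, -0.30 and 0.03, with a mean of -0.32 (SE 0.19), or 79.9% of control. Without siGNE array 1 the mean was -0.15.

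**Figure D1:**
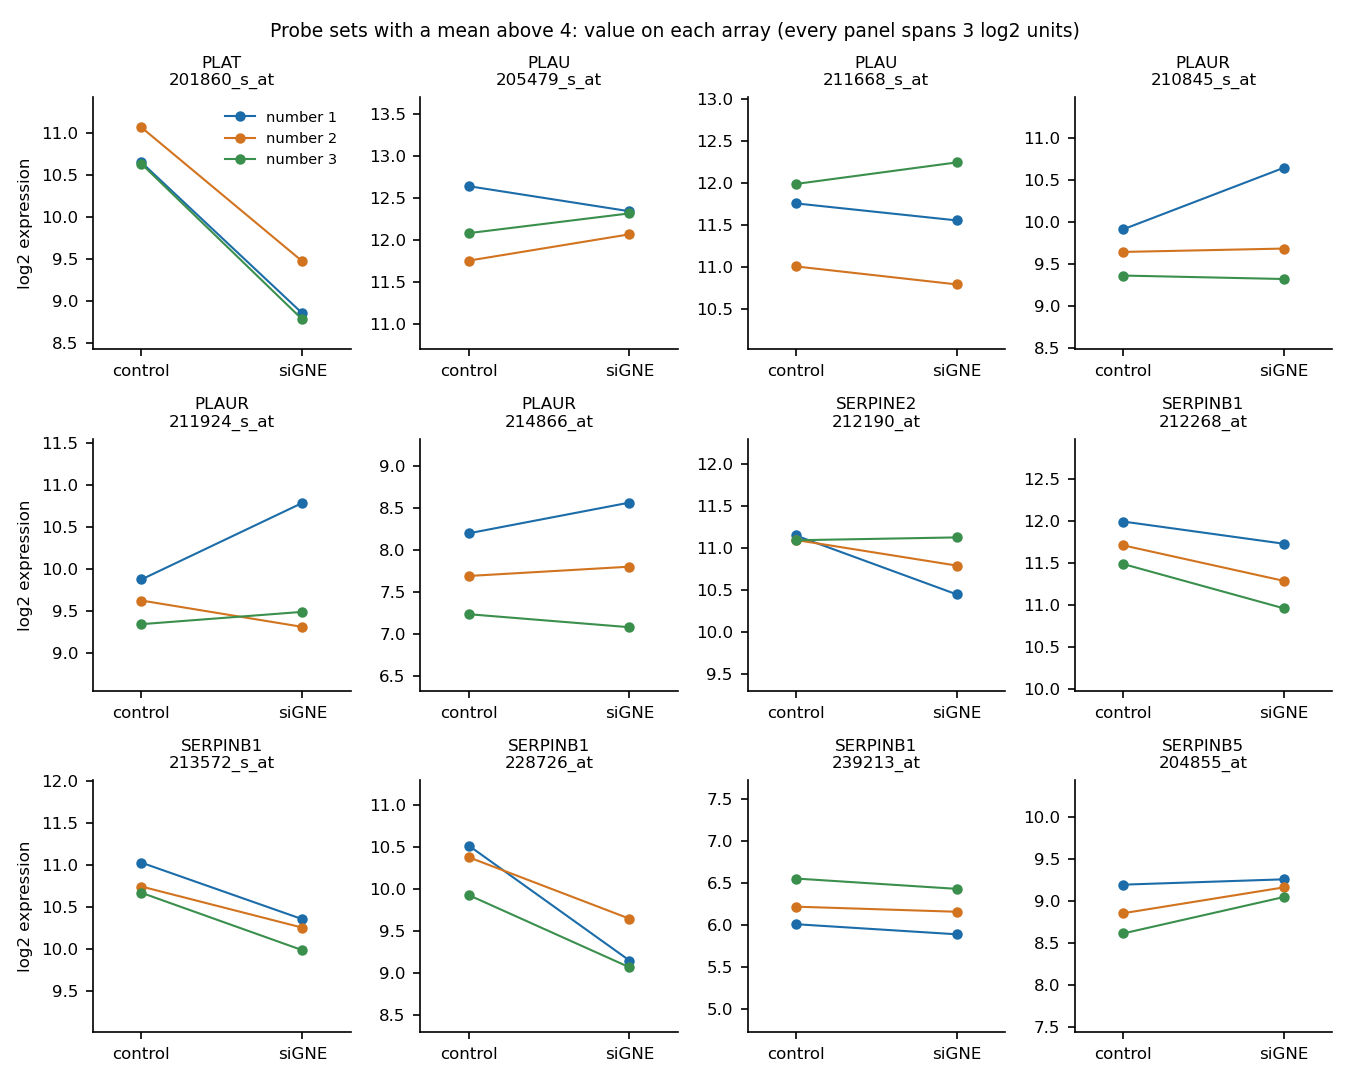
Log2 expression on each array for the 12 member probe sets with a mean above 4, control on the left and siGNE on the right of each panel, with a line and colour for each array number. Every panel spans 3 log2 units, and the downward lines of PLAT (10.64 to 11.07 in control, 8.79 to 9.48 in siGNE arrays) are the steepest.

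SERPINB1, an intracellular serpin that inhibits neutrophil elastase and related granule proteases, was lower in siGNE cells on all 4 of its probe sets and in all 3 pairs of each. Probe set 228726_at read 10.51, 10.37 and 9.92 in control and 9.14, 9.64 and 9.06 in siGNE arrays. The groups did not overlap, and the difference was -0.99 (SE 0.23), or 50.5% of control. Probe set 213572_s_at read 11.03, 10.75 and 10.67 in control and 10.36, 10.26 and 9.99 in siGNE arrays. These groups did not overlap either, and the difference was -0.61 (SE 0.16), or 65.3% of control.

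The other SERPINB1 probe sets differed by less. Probe set 212268_at, which has the highest mean and stands for the gene in the comparison of patterns, read 12.00, 11.72 and 11.49 in control and 11.73, 11.29 and 10.96 in siGNE arrays. Here siGNE array 1 lay above the control arrays 2 and 3, and the difference was -0.41 (SE 0.24, and 0.10 with the pair as a block). The mean difference was -0.27 without control array 1 and -0.22 without siGNE array 3. Probe set 239213_at read 6.01, 6.22 and 6.55 in control and 5.89, 6.16 and 6.43 in siGNE arrays. Its groups overlapped almost fully and its difference was -0.10 (SE 0.20). The size of the SERPINB1 difference thus ranged from -0.99 to -0.10 over probe sets of the same gene, and the average over the 4 was -0.53.

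SERPINB5, or maspin, is a clade B serpin known as a tumour suppressor in breast epithelium and as a protein that many pancreatic carcinomas express. It does not act as a classical protease inhibitor. Probe set 204855_at read 9.20, 8.86 and 8.62 in control and 9.26, 9.17 and 9.05 in siGNE arrays. The 2 groups overlapped, since control array 1 lay above siGNE arrays 2 and 3. Each siGNE array was above the control of its own number, by 0.06, 0.31 and 0.43, with a mean of 0.27 (SE 0.18, and 0.11 with the pair as a block). The spread between arrays was 0.58 in control and 0.21 in siGNE cells. SERPINB5 was the member with a higher value in all 3 pairs.

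**Figure D2:**
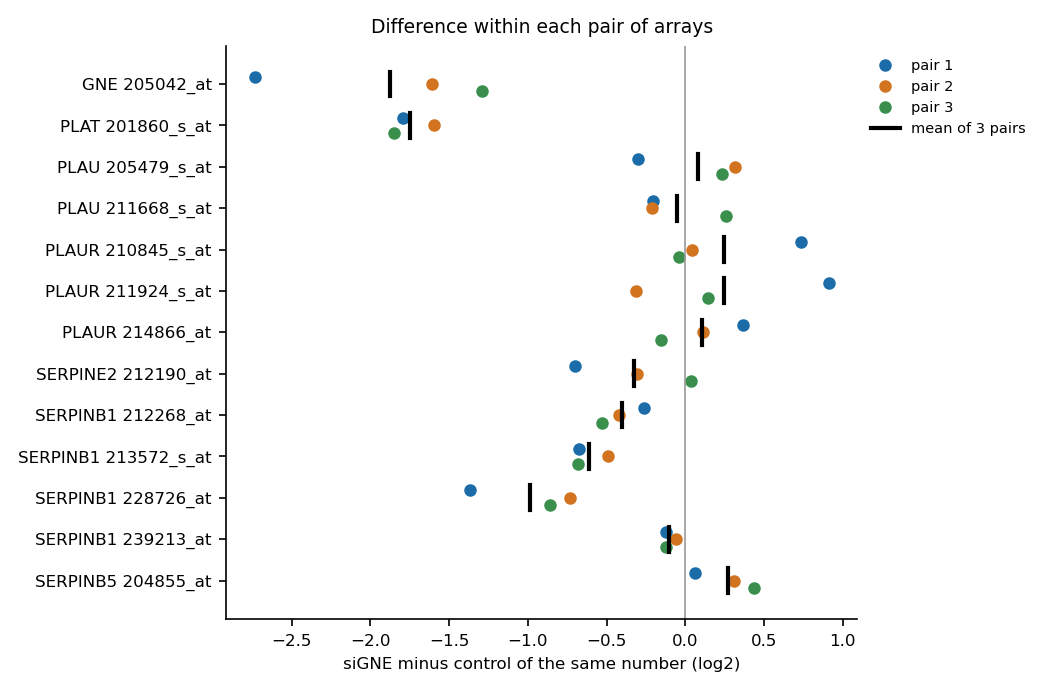
Difference between the siGNE and the control array of the same number, in log2 units, for GNE and the 12 member probe sets with a mean above 4. Coloured points are the 3 pairs and black bars their mean. PLAT points lie between -1.85 and -1.59, and PLAUR is set apart by pair 1, at 0.37 to 0.91.

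In counts, the groups did not overlap, with siGNE lower, for 3 of the 12 member probe sets (PLAT and 2 of SERPINB1), against 12.0% of all 22085 tested probe sets, and 0 of 12 had all siGNE values above all control values, against 8.39%. All 3 pairs were lower for 5 of 12 (PLAT and the 4 of SERPINB1), against 29.1%, and all were higher for 1 of 12, against 26.5%. In limma without the pair block, 0 of the 12 passed at an adjusted p under 0.05, against 0.0408% of all tested, and 3 had an unadjusted p under 0.05, against 14.6%. With the pair as a block, 3 of 12 passed in limma, all lower and all 3 among those without overlap, against 5.35% called lower and 4.13% called higher. With both arrays of any 1 number left out of the fit with the block, 0 of the 12 passed. Those fits have fewer residual degrees of freedom, and the share of all probe sets passing in them was not counted. As the members were chosen on this contrast, the counts describe them and support nothing.

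Likeness of pattern was measured as the root mean square difference of the 6 array values, each gene centred on its own mean, over 10861 other genes. The genes nearest to PLAT were the matrix glycoprotein EFEMP1, at a distance of 0.13 log2 units and with a difference of -1.87, the activin subunit INHBA (0.20, -1.85) and CCDC138 (0.21, -1.44). Nearest to SERPINB1 were the endoplasmic reticulum membrane protein CLN6 (0.05, -0.43), BCAP29 (0.06, -0.32) and KCTD12 (0.07, -0.47). Nearest to SERPINE2 were SRBD1 (0.06, -0.33), the phosphatase PPM1D (0.07, -0.39) and the bromodomain protein BRD7 (0.07, -0.24). The CLN6 probe set is of a kind prone to cross-hybridisation, so that assignment is uncertain. All these distances rest on the same 6 arrays.

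Clade B serpin genes lie in clusters, and the order of protein-coding genes in RefSeq places SERPINB1 directly beside SERPINB9 on chromosome 6. Both had probe sets above 4. SERPINB9, the intracellular inhibitor of granzyme B, fell from 9.93 ± 0.19 to 9.23 ± 0.02 (SD, n = 3) on 209723_at, a log2 difference of -0.69 (SE with block 0.11, limma adjusted p 0.0348 with the pair as a block and 0.116 without). Its other tested probe set, 242814_at, differed by -0.02, -2.49 and 0.00 in the 3 pairs and did not pass. On chromosome 18, where SERPINB5 heads a run of clade B genes, 9 were measured. SERPINB5 was the one above 4, and the other 8, among them SERPINB3, SERPINB4 and SERPINB7, had means of 1.91 to 3.04.

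Around the members, 111 genes of pericellular proteolysis were listed by role. Of these, 104 had a probe set of their own and 59 were above the limit for testing. The lists were made with earlier results of these data known. The p-values given for their genes are therefore descriptive. In limma without the pair block 0 of the 59 passed, against 0.0408% of all tested probe sets. In that fit 7 had an unadjusted p under 0.05, against 1757 of all 10862 tested genes. With the pair as a block, 3 rose and 3 fell and 53 did not pass, against 4.12% of 10862 tested genes called higher and 5.74% called lower. The median log2 difference of the 59 was 0.02, and that of all tested genes was -0.02. With any single array left out of the limma fit without the block, or both arrays of a number out of the fit with it, 0 of these genes passed. Those fits have fewer residual degrees of freedom, and the share of all tested genes passing in them was not counted.

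Of the genes listed for plasminogen and its binding at the cell surface, 5 were tested and 0 passed in either limma fit. Of all 10862 tested genes, 4.12% were called higher and 5.74% lower with the block. In limma without the block 1 of the 5 had an unadjusted p under 0.05, against 1757 of all 10862 tested genes. PLG, plasminogen itself, was not tested, since it read 2.63 in control and 2.64 in siGNE cells, which is background. The plasminogen receptor PLGRKT differed by 0.12 (SE 0.23, and 0.09 with the pair as a block). ANXA2 and S100A10 are the subunits of the complex that binds tPA and plasminogen. They differed by 0.13 (SE 0.12) and 0.03 (SE 0.12), within the spread between arrays. With the pair as a block the SE was 0.08 for each. The ANXA2 probe sets are of a kind prone to cross-hybridisation. AMBP, the precursor of the protease inhibitor bikunin, went from 3.94 to 4.65, values near background. Its limma adjusted p was 0.0511 with the pair as a block and 0.217 without.

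Of the other serpins and protease inhibitors, 1 of 12 tested fell with the block and 0 rose, with a median difference of 0.02. The shares over all tested genes were 5.74% lower and 4.12% higher. The gene that fell was SERPINB9. SERPINF2, the main inhibitor of plasmin, was at background with 3.06 and 3.10.

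Among the partners of the urokinase receptor and the receptors that clear protease and inhibitor complexes, 2 of 13 tested rose and 0 fell with the block, with a median of 0.05. Over all tested genes 4.12% were called higher and 5.74% lower. VLDLR, an endocytic receptor that takes up urokinase bound to its inhibitor, rose from 8.04 ± 0.34 to 9.54 ± 0.38 (SD, n = 3). The log2 difference was 1.50 (SE with block 0.09), a fold of 2.83, with 1.58, 1.41 and 1.50 in the pairs and a limma adjusted p of 0.0153 with the block and 0.0978 without. SRPX2, a secreted ligand of the urokinase receptor, rose from 6.61 ± 0.36 to 7.17 ± 0.27, by 0.55 (SE with block 0.09, limma adjusted p 0.0373 with the block and 0.350 without). The related clearance receptor LRP1 differed by 0.05 (SE 0.46, and 0.16 with the block), with 0.48, -0.09 and -0.25 in the pairs. The integrin subunit ITGB1 differed by 0.09 (SE 0.13, and 0.08 with the block).

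Matrix metalloproteinases and their inhibitors gave 1 fall and 0 rises with the block among 10 tested, with a median of -0.04. Over all tested genes 5.74% were called lower and 4.12% higher. MMP7, or matrilysin, an epithelial metalloproteinase, fell from 9.33 ± 0.21 to 8.55 ± 0.24 (SD, n = 3). The log2 difference was -0.78 (SE with block 0.09, limma adjusted p 0.0274 with the block and 0.143 without), and the pairs read -0.64, -0.82 and -0.86. The membrane metalloproteinase MMP14 differed by -0.06 (SE 0.25) and the inhibitor TIMP1 by 0.13 (SE 0.18). With the block the SE was 0.09 for each.

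Of the other pericellular serine proteases with their receptors and tissue factor, 1 of 19 tested rose and 1 fell with the block, with a median of 0.00. Over all tested genes 4.12% were called higher and 5.74% lower. MET, the receptor of hepatocyte growth factor, a ligand that such proteases activate, fell from 11.71 ± 0.38 to 10.66 ± 0.05 (SD, n = 3). The log2 difference was -1.05 (SE with block 0.16, limma adjusted p 0.0337 with the block and 0.116 without), with -1.46, -0.88 and -0.80 in the pairs. Each of its 3 other tested probe sets was lower as well, by 0.87 to 1.29 on the log2 scale. PRSS3, mesotrypsin, rose by 0.60 (SE with block 0.09, limma adjusted p 0.0338 with the block and 0.280 without). Its probe sets are prone to cross-hybridisation with other trypsin genes, so the assignment is uncertain. Matriptase (ST14), a membrane protease that can activate urokinase, differed by 0.00 (SE 0.13, and 0.12 with the block). Tissue factor (F3) differed by -0.16 (SE 0.24, and 0.13 with the block).

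**Figure D3:**
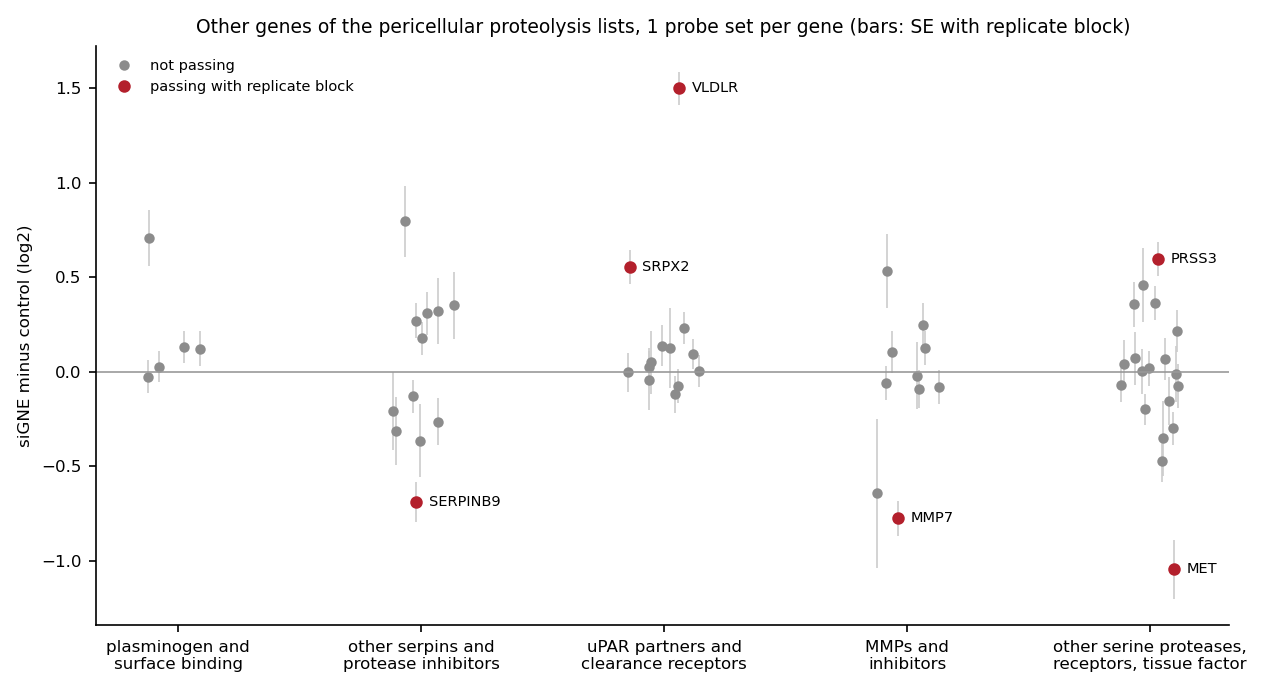
Log2 difference, siGNE minus control, for the 59 tested genes of the 5 lists around the members, 1 point per gene with the standard error of the fit with the pair as a block. Red points are the 6 genes that passed with the block, of which VLDLR at 1.50 and MET at -1.05 lie farthest from 0.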

How the data were processed

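Expression was measured on 6 Affymetrix arrays, 3 control and 3 siGNE, from cRNA made of 300 ng total RNA. The deposited values are log2 expression that the authors made with GCRMA, per the submitters' processing notes. The sources used here give no version. The range of the values, 0.612 to 16.3, shows the log2 scale, and nothing was re-normalized. The number of arrays limits the precision. Gene names came from the platform annotation (41097 with 1 gene, 1801 with several, 11777 with none), with symbols from RefSeq GRCh38.p14 by gene identifier (41043 matched).

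Differences were fitted with limma 3.58.1 in R 4.3.3 (lmFit, eBayes), with Benjamini-Hochberg adjustment over the 22085 probe sets with a mean above 4 (62 control probe sets left out) and a threshold of 0.05. A gene other than the members is represented by its tested probe set with the highest mean, leaving out those marked as prone to cross-hybridisation where it has another. The main fit had no pair term, and a second had the title number as a block. The numbers in the titles pair the arrays: deviations from the group means correlated at 0.58, 0.71 and 0.83 for equal numbers and at -0.64 to 0.17 for different ones. The fits were tried on simulated data, the fit without the block only on data with no pair effects. The fit with the block was tried only on data with pair effects. Named are the members, GNE, a fixed set of 16 pathway genes, up to 5 passing genes per list (the 2 with the smallest p where none passes), and the 3 nearest patterns of the 3 members with the largest difference. Of the fixed set 2 are not analysed here. Members and lists were chosen with earlier results of these data known.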

Additional observations from a re-analysis of the deposited data

How the results depend on the processing

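The 6 member differences moved by less than the pooled SD of the arrays within groups (0.22 for SERPINB5 to 0.52 for PLAUR, and 0.24 for SERPINE2) under all 17 alternatives run. PLAU and PLAUR nevertheless changed sign under 2 alternatives each, and the other 4 members under 0. SERPINE2 went from -0.32 to -0.17 as the mean over its probe sets, 1 of which is at background. The alternatives were the replicate block, quantile normalization, median centring, a floor at 4, no filter, a mean above 6, and trended and robust variances. The others were the mean over probe sets, and fits without single arrays or, chosen after seeing the data, without both arrays of a number. The block, the floor, the filter settings and the trended and robust variances left each member difference as it was, by construction. The mean over probe sets did so for PLAT, which has 1 probe set. Leaving out arrays gave ranges of -1.97 to -1.60 for PLAT, -0.12 to 0.32 for PLAU, -0.14 to 0.53 for PLAUR, -0.50 to -0.14 for SERPINE2, -0.61 to -0.22 for SERPINB1 and 0.13 to 0.42 for SERPINB5. With the replicate block the share of all tested probe sets called in limma, in either direction, went from 0.0408% to 9.49%. Among all tested genes the block called 4.12% higher and 5.74% lower. The limma calls went from 0 to 3 lower member probe sets, from 0 to 3 higher and from 0 to 3 lower pathway genes, and GNE (-1.88) passed. With both arrays of a number left out of the blocked fit, each of these counts was 0 and GNE did not pass (limma adjusted p 0.0665 to 0.144). Those fits have fewer residual degrees of freedom. GNE ran from -2.17 to -1.44 without arrays. The mean over probe sets turned the sign of S100A10 (-0.027), LRP1 (-0.035) and MMP14 (0.024), and median centring that of ST14 (-0.0068). With the replicate block and without number 1, LRP1 was -0.17 and ST14 -0.074, and without number 3 ST14 was -0.054. Leaving out single arrays gave -0.048 to 0.30 for PLGRKT, -0.037 to 0.077 for S100A10, -0.24 to 0.49 for LRP1, -0.23 to 0.17 for MMP14, -0.0011 to 0.23 for TIMP1, -0.055 to 0.10 for ST14 and -0.29 to 0.087 for F3. These genes passed in neither fit, and the cause was not tested. Signals near background limit what can be said of SERPINF2, PLG and the chromosome 18 serpins.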

Other observations

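Values outside the comparisons above also stood apart on single arrays. MMP1, an interstitial collagenase, had a mean under the limit of 4 and read 4.86 on siGNE array 1, while the other 5 arrays read 2.96 to 3.07. MMP9, or gelatinase B, read 8.17 on control array 1 and 6.39 on siGNE array 1, while the other 4 arrays read 4.43 to 4.89. Array number 1 is also the one on which PLAUR was highest in both groups. SERPINI1, or neuroserpin, an inhibitor of tPA best known from neurons, read 7.61, 7.31 and 7.08 in control and 8.91, 7.98 and 7.49 in siGNE arrays, and the 2 groups overlapped. Its log2 difference was 0.80 (SE with block 0.19). The limma adjusted p was 0.0646 with the pair as a block and 0.397 without, so it did not pass. The choice of these genes was made with their values in view.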
